A study of Homo sapiens and Mus musculus with 10 samples.

Results

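A group of 7 genes of cholesterol metabolism were followed in the human embryonic kidney line HEK293T. They were compared under glucose deprivation (GD), under thapsigargin (TG) and in cells described as UFD1s-deficient, UFD1s being a form of UFD1. The genes were chosen by name, as the rows of the HEK293T count tables whose gene symbol is HMGCS1, IDI1, FDFT1, SQLE, TM7SF2, DHCR7 or INSIG1. This choice was made with earlier results of these data known, so their contrast with all transcripts is a description and not an independent test. All 7 had a row in each table, which hold 16120 and 11976 transcript rows with 1 row per symbol. For 6 of the 7 the same RefSeq transcript was counted in both tables, and these 6 belong to the 10368 shared transcripts that could be tested together. DHCR7 was counted on NM_001163817.1 in the stress set and on NM_001360.2 in the genotype set.

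The series sequenced RNA depleted of ribosomal RNA from 10 libraries, of which the 7 of HEK293T are used here. A stress set held 1 library each of WT cells deprived of glucose for 24 h, WT cells treated with 300 nM TG for 6 h, and WT mock-treated cells. A genotype set held 1 library each of UFD1s-deficient GD, UFD1s-deficient mock, WT GD and WT mock. Thapsigargin causes stress in the endoplasmic reticulum (ER) by blocking its calcium pump, and UFD1 helps the ATPase p97 to extract ubiquitinated proteins. The labels do not say how the deficient line was made, whether it is 1 clone, or whether libraries came from separate cultures.

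Cholesterol is built from acetyl-CoA through mevalonate, isoprenoid diphosphates, squalene and a chain of sterols. The transcription factor SREBP2, held in the ER membrane with its escort SCAP, switches on most of these enzymes when membrane sterol is low. INSIG1 keeps SCAP and SREBP in the ER when sterol is plentiful, and is itself an SREBP target. Oxidised forms of cholesterol act on the LXR receptors, which raise export of sterol and limit its uptake.

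Libraries held 11461365 to 19024327 counted reads, and each GD library was shallower than the mock library of its own pair. The UFD1 row, NM_005659.6, had 193 reads in deficient GD, 199 in deficient mock, 107 in WT GD and 168 in WT mock. This row is not stated to cover the part lost in the deficient line, so it checks nothing about the genotype. In the stress set the UFD1 row was another transcript, NM_001035247.2, with 0 reads in GD, 0 in TG and 10 in mock. Of the markers listed for HEK293T, VIM had 11447 to 16304 reads per library, and CDH2 and NEFL were also abundant. NEFM, also listed, was near 0 in the stress set, with 6 reads in GD, 4 in TG and 8 in mock. KRT18 had 8 to 37 reads, and KRT8 had 0 to 77 on rows that are not the same transcript in the 2 tables. Of markers of other cell types, ALB had 0 to 5 reads and COL17A1 20 to 50, while PTPRC, CD3E and MYH7 were not analysed here.

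All 6 testable genes had a lower fitted level in GD, and 4 of them passed the test. IDI1, TM7SF2, FDFT1 and SQLE fell by 1.13, 0.99, 0.66 and 0.47 on the log2 scale, and 0 of the 6 rose. Across all 10368 transcripts the test called 11.1% lower and 9.75% higher, and the median log2 change was −0.02, against −0.65 for the 6 genes. The test was edgeR's quasi-likelihood test on 3 GD and mock pairs with set and genotype as terms, adjusted by Benjamini-Hochberg over all 10368 transcripts, with calls at 0.05. Of all calls 46.7% were higher in GD, or 30.9% when libraries were scaled by their totals alone. With treatment as the only term, 0 of the 6 genes were called. In TG only INSIG1 moved past 2-fold, to 0.48 of mock, where 3.31% of 9116 transcripts were 2-fold lower and 4.73% higher. HMGCS1 was the single member above mock in TG. No member was called between genotypes, where the test called 0.328% of all transcripts higher and 0.781% lower. Levels are given in CPM, reads scaled to the size of the library and then by TMM, a between-library factor computed in each set alone. Levels of the 2 sets are thus not on a common scale, and their order across sets is approximate. They are shares of a library, so less RNA per cell and fewer cells holding it cannot be told apart. No length correction was made, so levels are compared between libraries and not between genes. Summed over the 7 genes, and on library totals without that factor, reads came to 327 CPM in deficient GD against 515 in deficient mock, 298 in WT GD against 545 in WT mock of the genotype set, and 395 in GD and 457 in TG against 638 in mock of the stress set.

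**Figure D1:**
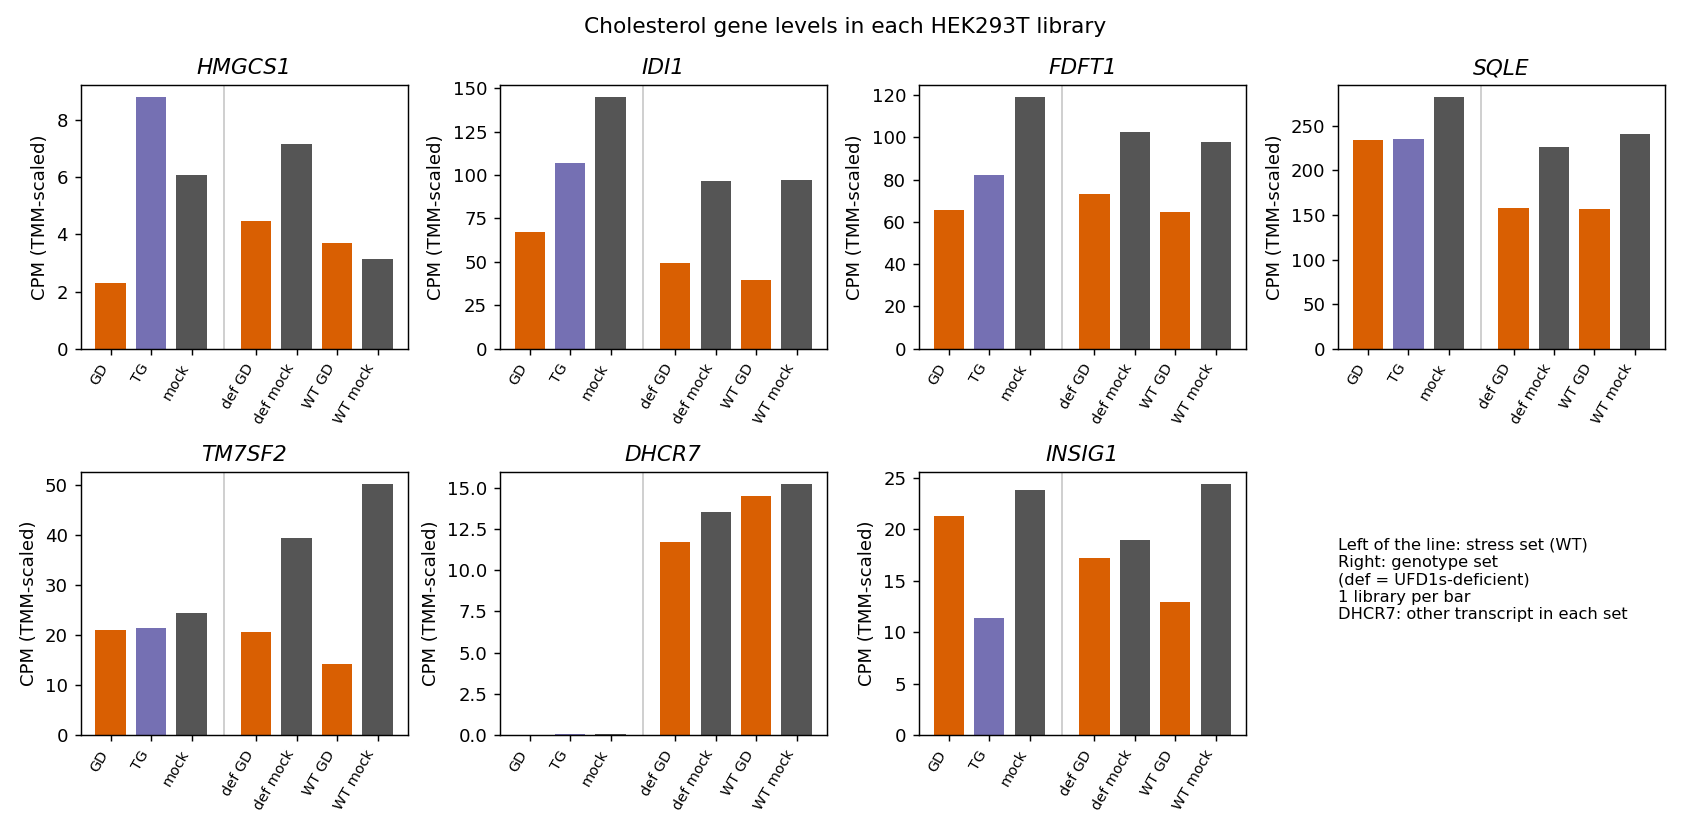
TMM-scaled CPM of the 7 genes in each of the 7 HEK293T libraries, 1 bar per library with no error bar because each is a single library. The IDI1 and FDFT1 bars in GD (orange) lie below every mock bar (grey), and INSIG1 is lowest in TG (purple).

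HMGCS1, the cytosolic synthase that makes HMG-CoA, had the fewest reads of the tested members, 28 to 164 per library. It stood at 4.47 CPM in GD and 7.16 CPM in mock of deficient cells, at 3.68 CPM in GD and 3.13 CPM in mock of genotype-set WT cells, and at 2.29 CPM in GD and 6.09 CPM in mock of the stress set. The GD libraries overlapped the mock libraries, because the genotype-set WT mock library was lower than 2 of the 3 GD libraries. The ratio to mock was 0.375 in the stress set, with an exact conditional 95% interval of 0.239 to 0.573, and 1.18 in genotype-set WT cells, with an interval of 0.742 to 1.86. These intervals cover counting error only. The fitted log2 change was −0.64 (SE 0.351, n = 3 pairs, edgeR adjusted p = 0.2272), which did not pass. It was −0.27 without either library of the stress-set pair, −1.03 without the genotype-set WT GD library and −1.04 without the genotype-set WT mock library, uncalled in each.

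IDI1, which isomerises isopentenyl diphosphate to its reactive partner, fell most of the 6 tested. It stood at 49.1 CPM in GD and 96.4 CPM in mock of deficient cells, at 39.8 CPM in GD and 96.9 CPM in mock of genotype-set WT cells, and at 67.4 CPM in GD and 144.6 CPM in mock of the stress set. The 3 GD libraries were all below the 3 mock libraries. The fall was 1.13 on the log2 scale (log2 change −1.13, SE 0.102, n = 3 pairs, edgeR adjusted p = 0.0003282). Its ratio to mock was 0.509 in deficient cells, 0.411 in genotype-set WT cells and 0.466 in the stress set, so the 3 pairs lay close together. IDI1 overlaps the genes WDR37 and IDI2-AS1, and the use of strand in counting is not given in the sources used here, so reads of these partners may be included.

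FDFT1, the squalene synthase that commits farnesyl diphosphate to sterols, also separated GD from mock in every pair. It stood at 73.1 CPM in GD and 102.5 CPM in mock of deficient cells, at 64.5 CPM in GD and 97.7 CPM in mock of genotype-set WT cells, and at 65.5 CPM in GD and 119 CPM in mock of the stress set. No GD library reached the lowest mock library. The log2 change was −0.66 (SE 0.106, n = 3 pairs, edgeR adjusted p = 0.003499). FDFT1 overlaps LOC105379243, a long noncoding RNA gene.

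SQLE, the squalene epoxidase that opens the sterol part of the pathway, had the most reads of the 7 genes, 1750 to 5093 per library, and the smallest fall among the 4 called. It stood at 158 CPM in GD and 226 CPM in mock of deficient cells, at 157 CPM in GD and 241 CPM in mock of genotype-set WT cells, and at 234 CPM in GD and 282 CPM in mock of the stress set. GD was below mock in each pair, but the stress-set GD library was above the deficient mock library. The log2 change was −0.47 (SE 0.0937, n = 3 pairs, edgeR adjusted p = 0.008602). Leaving out any 1 of the 4 genotype-set libraries ended the call, with edgeR adjusted p of 0.0799 to 0.1186. In the 2 WT pairs alone, the same pairs as are left without a deficient library, SQLE had a log2 change of −0.45 (edgeR adjusted p = 0.1168).

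TM7SF2, a sterol C14-reductase of the ER membrane, differed most between pairs among the 4 called. It stood at 20.6 CPM in GD and 39.6 CPM in mock of deficient cells, at 14.2 CPM in GD and 50.2 CPM in mock of genotype-set WT cells, and at 21.1 CPM in GD and 24.5 CPM in mock of the stress set. All GD libraries were below all mock libraries, yet the stress-set pair were near each other. The ratio to mock was 0.521 in deficient cells (95% interval 0.446 to 0.608), 0.283 in genotype-set WT cells (0.236 to 0.337) and 0.861 in the stress set (0.735 to 1.01). The log2 change over the 3 pairs was −0.99 (SE 0.25, edgeR adjusted p = 0.02257). Without the genotype-set WT GD library it was −0.58 (edgeR adjusted p = 0.06172). The call was also lost without the genotype-set WT mock library, where the value was −0.59, or either deficient library (edgeR adjusted p 0.0778 to 0.1148). WT pairs alone, the same pairs as are left without a deficient library, gave an uncalled log2 change of −1.02 (edgeR adjusted p = 0.1145).

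DHCR7, which reduces 7-dehydrocholesterol to cholesterol at the end of the pathway, could be described in the genotype set. It stood at 11.7 CPM in GD and 13.5 CPM in mock of deficient cells, and at 14.5 CPM in GD and 15.2 CPM in mock of WT cells. The 4 libraries were close, with 136 to 194 reads each. A fit on the whole genotype table of 11975 transcripts, added after the data were seen and resting on 1 residual degree of freedom, gave a log2 change of −0.14 in GD (SE 0.191, n = 2 pairs, edgeR adjusted p = 0.6197). In the stress set the other DHCR7 transcript had 0 reads in GD, 2 in TG and 2 in mock, too few for any ratio. DHCR7 overlaps the noncoding gene DHCR7-DT.

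INSIG1 is the regulator among the 7. It stood at 17.2 CPM in GD and 19.0 CPM in mock of deficient cells, at 12.9 CPM in GD and 24.4 CPM in mock of genotype-set WT cells, and at 21.3 CPM in GD and 23.8 CPM in mock of the stress set. The stress-set GD library was above the deficient mock library, so the groups overlapped. The ratio to mock was 0.907 in deficient cells (95% interval 0.75 to 1.1), 0.531 in genotype-set WT cells (0.433 to 0.649) and 0.895 in the stress set (0.765 to 1.05). The log2 change was −0.40 (SE 0.186, n = 3 pairs, edgeR adjusted p = 0.1549), which did not pass. In the genotype set alone it was −0.52 and was called (edgeR adjusted p = 0.01338, 1 residual degree of freedom). It was also called without the GD or the mock library of the stress set (edgeR adjusted p = 0.01006 and 0.03278). Those fits rest on the same genotype-set pairs, so they are not separate checks. Without the genotype-set WT GD or WT mock library the log2 change was −0.16 in each case (edgeR adjusted p = 0.7573 and 0.7572). INSIG1 overlaps the noncoding genes INSIG1-DT and LOC105375592.

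**Figure D2:**
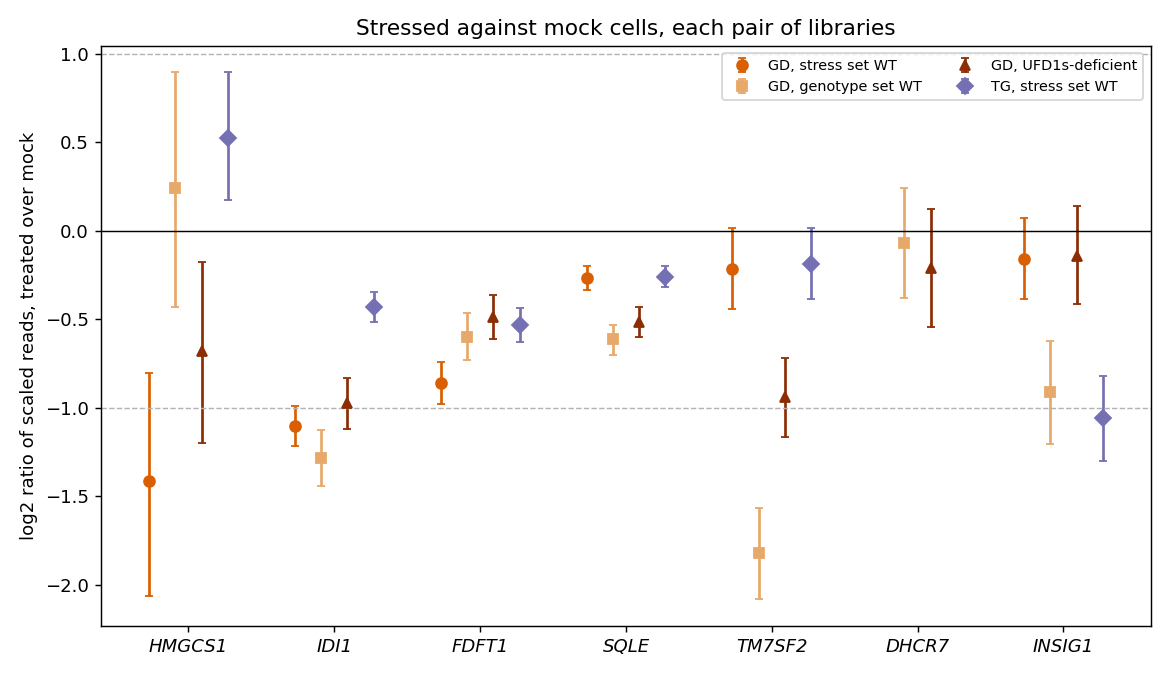
Log2 of the ratio of scaled reads, treated over mock, for each gene in each pair of libraries; error bars are exact 95% intervals of the read ratio (counting error only) and dashed lines mark 2-fold. IDI1 lies near −1 in the 3 GD pairs, whereas TM7SF2 spans ratios of 0.283 to 0.861.

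Past 2-fold lower in GD, with at least 50 reads in the higher library and after adding a prior of 5 reads, were HMGCS1 and IDI1 in the stress set, where 3.57% of 8904 transcripts were this low. In genotype-set WT cells they were IDI1 and TM7SF2, against 4.42% of 9927 transcripts. In deficient cells 0 of the 7 were past 2-fold, against 4.17% of 10054 transcripts, with IDI1 nearest at a ratio of 0.509. The WT libraries of the 2 sets differed by an amount that varied from gene to gene. The genotype-set mock library minus the stress-set mock library gave log2 differences of −1.06 for HMGCS1, −0.76 for IDI1 and 0.84 for TM7SF2, and −0.47 for FDFT1, −0.41 for SQLE and −0.15 for INSIG1, against a median absolute difference of 0.394 over all transcripts. For the GD libraries the same difference was −0.92 for IDI1, −0.87 for INSIG1, −0.75 for SQLE and −0.73 for TM7SF2, and 0.46 for HMGCS1 and −0.19 for FDFT1, against a median of 0.438. These differences were taken on the shared transcripts with all 7 libraries scaled together, unlike the CPM values, which were scaled set by set. Ratios are therefore taken within a set throughout, and comparisons of CPM across sets are approximate.

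Promoter sequences are shown for IDI1 and TM7SF2, which fell in GD, and for INSIG1, which was lowest in TG, since SREBPs act at promoters together with the CCAAT-binding factor NF-Y. They are the 250 bases before an annotated start, from RefSeq on GRCh38.p14, which is not the hg19 build of the counts. Of the 7 genes 5 were matched to such windows. Where a gene had several windows, the one nearest to the GENCODE start of the counted transcript was taken, which for IDI1 is 51 bases away and 1 of 3 windows. Capitals mark the NF-Y box CCAAT, which on the other strand reads as ATTGG. They also mark CACNCCAC, a core of sterol regulatory elements, and CACGTG, the E-box.
IDI1, chr10:1049120-1049369, minus strand: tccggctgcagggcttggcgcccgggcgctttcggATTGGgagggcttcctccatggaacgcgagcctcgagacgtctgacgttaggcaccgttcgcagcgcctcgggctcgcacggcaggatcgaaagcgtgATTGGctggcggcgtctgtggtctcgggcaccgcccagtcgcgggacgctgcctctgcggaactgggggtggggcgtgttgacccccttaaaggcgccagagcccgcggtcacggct
TM7SF2, chr11:65111622-65111871, plus strand: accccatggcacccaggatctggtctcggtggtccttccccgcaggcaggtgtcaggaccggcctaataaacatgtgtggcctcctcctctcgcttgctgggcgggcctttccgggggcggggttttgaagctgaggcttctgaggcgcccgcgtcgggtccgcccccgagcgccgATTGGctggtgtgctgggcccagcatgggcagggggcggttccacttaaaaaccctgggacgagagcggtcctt
INSIG1, chr7:155297628-155297877, plus strand: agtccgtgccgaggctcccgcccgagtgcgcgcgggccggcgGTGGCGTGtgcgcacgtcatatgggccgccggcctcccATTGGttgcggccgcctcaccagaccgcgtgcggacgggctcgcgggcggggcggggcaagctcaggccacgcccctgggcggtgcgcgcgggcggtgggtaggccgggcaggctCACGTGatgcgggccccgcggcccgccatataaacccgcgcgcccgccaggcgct

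The IDI1 window holds CCAAT on the strand opposite to the printed one, at 215 to 211 and at 117 to 113 bases before the start. The TM7SF2 window holds it at 74 to 70 bases, also opposite to the printed strand. INSIG1 has CCAAT at 170 to 166, CACNCCAC at 208 to 201 and CACGTG at 55 to 50 bases before the start. Searched on both strands, CCAAT was in the window of 5 of 5 members (the others are HMGCS1 and DHCR7), against 32% of all 35116 RefSeq windows. GGGCGG, the GC box of SP1, was also in 5 of 5, against 42.6%. CACNCCAC was in 1 of 5, or 2 of 5 if any window of a gene counts, against 4.87%, and CACGTG in 1 of 5, against 6.34%. TGATGNAA, from the element bound by ATF4 with C/EBP factors, was in 0 of 5, against 3.14%. These are matches of letters and not measured binding.

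The other enzymes of the pathway were next compared in GD. Of the 14 compared, 8 could be tested, 3 were called lower and 0 higher, with a median log2 change of −0.36. Over all transcripts 11.1% were called lower and 9.75% higher. ACAT2, a thiolase of the first step, stood at 75.8 CPM in GD and 103 CPM in mock of deficient cells, at 74.3 CPM in GD and 121 CPM in mock of genotype-set WT cells, and at 58.0 CPM in GD and 116 CPM in mock of the stress set. Its 3 GD libraries were all below its 3 mock libraries, with a log2 change of −0.72 (SE 0.118, edgeR adjusted p = 0.003781). MSMO1, a sterol C4-methyl oxidase, fell by 0.58 and EBP, the sterol isomerase, by 0.50 (edgeR adjusted p = 0.02348 and 0.007736). The mevalonate enzymes PMVK and MVD, at log2 changes of 0.00 and −0.04, were not called. The members thus had neighbours in the pathway both among the called and the uncalled genes.

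Genes that control SREBP were compared in the same fit. Of the 7 tested, 1 was called higher and 0 lower, against 9.75% and 11.1% of all transcripts, with a median log2 change of 0.10. MBTPS2, the protease that frees SREBP from the membrane, rose by 0.32 (SE 0.086, edgeR adjusted p = 0.02757). SREBF2, which encodes SREBP2, had a log2 change of 0.10 and SCAP of 0.13, and neither passed (edgeR adjusted p = 0.4872 and 0.2929).

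For uptake, transport and efflux 2 of 9 tested genes were called lower and 0 higher, against 11.1% and 9.75% of all transcripts, with a median of −0.15. Both are LXR targets. ABCA1, the sterol exporter, stood at 3.52 CPM in GD and 8.73 CPM in mock of deficient cells, at 1.98 CPM in GD and 6.74 CPM in mock of genotype-set WT cells, and at 4.98 CPM in GD and 10.4 CPM in mock of the stress set. The GD libraries did not overlap the mock libraries, and the log2 change was −1.35 (SE 0.257, edgeR adjusted p = 0.007053). MYLIP, the ubiquitin ligase IDOL that degrades lipoprotein receptors, fell by 1.13 (SE 0.183, edgeR adjusted p = 0.003499). Of the other branches from farnesyl diphosphate (geranylgeranylation, farnesylation and coenzyme Q), 0 of 6 were called, with a median of 0.10. Of the fatty acid enzymes driven by SREBP1, 5 of 6 were called lower, with a median of −1.10. The largest falls on the log2 scale were of ELOVL6, by 1.46 (SE 0.353, edgeR adjusted p = 0.01864), and ACLY, by 1.45 (SE 0.252, edgeR adjusted p = 0.004723). Both had few reads, 10 to 96 per library for ELOVL6 and 40 to 272 for ACLY. The others called were FADS2, a desaturase, which fell by 1.26 (SE 0.102, edgeR adjusted p = 0.0002329), and SCD and FASN, which fell by 0.94 and 0.76.

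**Figure D3:**
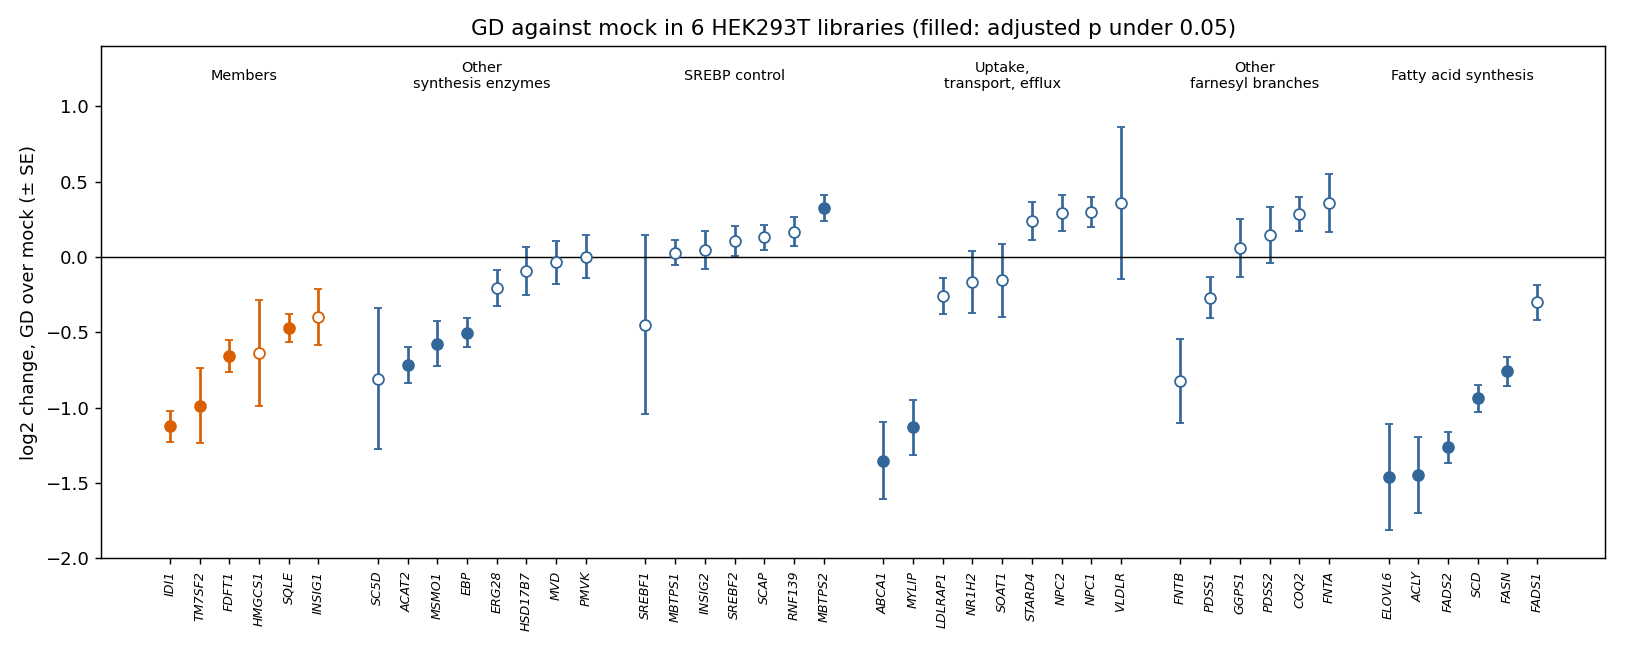
Log2 change in GD over mock with its standard error from the edgeR fit on 6 libraries, for the cholesterol genes (orange) and the genes of related lists (blue); filled points have an adjusted p under 0.05. The filled points of the members run from −1.13 (IDI1) to −0.47 (SQLE), and the filled point above 0 is MBTPS2.

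Some markers of the line moved with GD as well. Of the 6 listed, 4 could be tested, with NEFL lower by a log2 change of −0.72 (edgeR adjusted p = 0.001801) and VIM higher by 0.38 (edgeR adjusted p = 0.04277). KRT18 and CDH2 were not called. The part of these shifts, and of the lower depth of the GD libraries, in the results for the cholesterol genes was not tested.

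Under TG 5 of the 6 members with enough reads were below mock, and INSIG1 was the lowest. TG had 1 library, so these are ratios of 2 libraries with no replicate check and no test. TG lasted 6 h and GD 24 h, so where the 2 are set side by side, agent and time cannot be told apart. INSIG1 stood at 11.4 CPM in TG, 21.3 CPM in GD and 23.8 CPM in mock, and its ratio of TG to mock was 0.48 (95% interval 0.405 to 0.567, counting error only). It was the 1 of 6 members with enough reads that passed 2-fold, where 3.31% of 9116 transcripts were 2-fold lower in TG and 4.73% were 2-fold higher. HMGCS1 stood at 8.79 CPM in TG, 2.29 CPM in GD and 6.09 CPM in mock, a ratio of TG to mock of 1.44 (1.13 to 1.86). Among the 7 genes, HMGCS1 and INSIG1 therefore lay on opposite sides of mock in the TG library.

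The other 4 members were below mock in TG. FDFT1 stood at 82.1 CPM in TG and 119 CPM in mock, a ratio of 0.691 (0.647 to 0.738). IDI1 stood at 107 CPM in TG and 144.6 CPM in mock, a ratio of 0.741 (0.699 to 0.786), with 67.4 CPM in GD. Its TG library, at 6 h, thus lay between GD, at 24 h, and mock. SQLE had a ratio of 0.835 (0.802 to 0.87) at 235.5 CPM in TG and 282 CPM in mock. TM7SF2 had a ratio of 0.877, and its interval of 0.764 to 1.01 included 1. The median log2 ratio of the 6 was −0.35, against 0.01 for all 9116 transcripts. Because TG and GD in this set share 1 mock library, similar values in the 2 comparisons are not independent of each other.

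Among related genes in TG, STARD4, a carrier of cholesterol between membranes, had the highest ratio. It stood at 138 CPM in TG and 53.5 CPM in mock, a ratio of 2.58 (2.4 to 2.78). MYLIP and ABCA1 were lowest, with ratios of 0.347 (0.307 to 0.392) and 0.417 (0.318 to 0.544). These 3 are the genes past 2-fold among the 8 of uptake, transport and efflux with enough reads. Over all 9116 transcripts with enough reads, 4.73% were 2-fold higher and 3.31% 2-fold lower, so 0 is a usual count for short lists. Of the 7 other synthesis enzymes compared that had enough reads 0 passed 2-fold, although HSD17B7, a sterol ketoreductase, had a ratio of 1.92 (1.7 to 2.17), MVD of 1.58 and PMVK of 1.48. MSMO1 was lowest of them, at 0.677. The pathway thus held genes on each side of mock in the TG library. Of the 6 SREBP control genes 0 passed 2-fold, with the 3 farthest from mock RNF139 at 1.18, SCAP at 1.15 and INSIG2 at 0.961. Among fatty acid enzymes 0 of 6 did, with ACLY at 0.57, ELOVL6 at 0.575 and FASN at 0.649 farthest from mock. Among the other branches 0 of 6 did, with COQ2 at 1.45, FNTA at 1.25 and PDSS2 at 1.22 farthest.

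**Figure D4:**
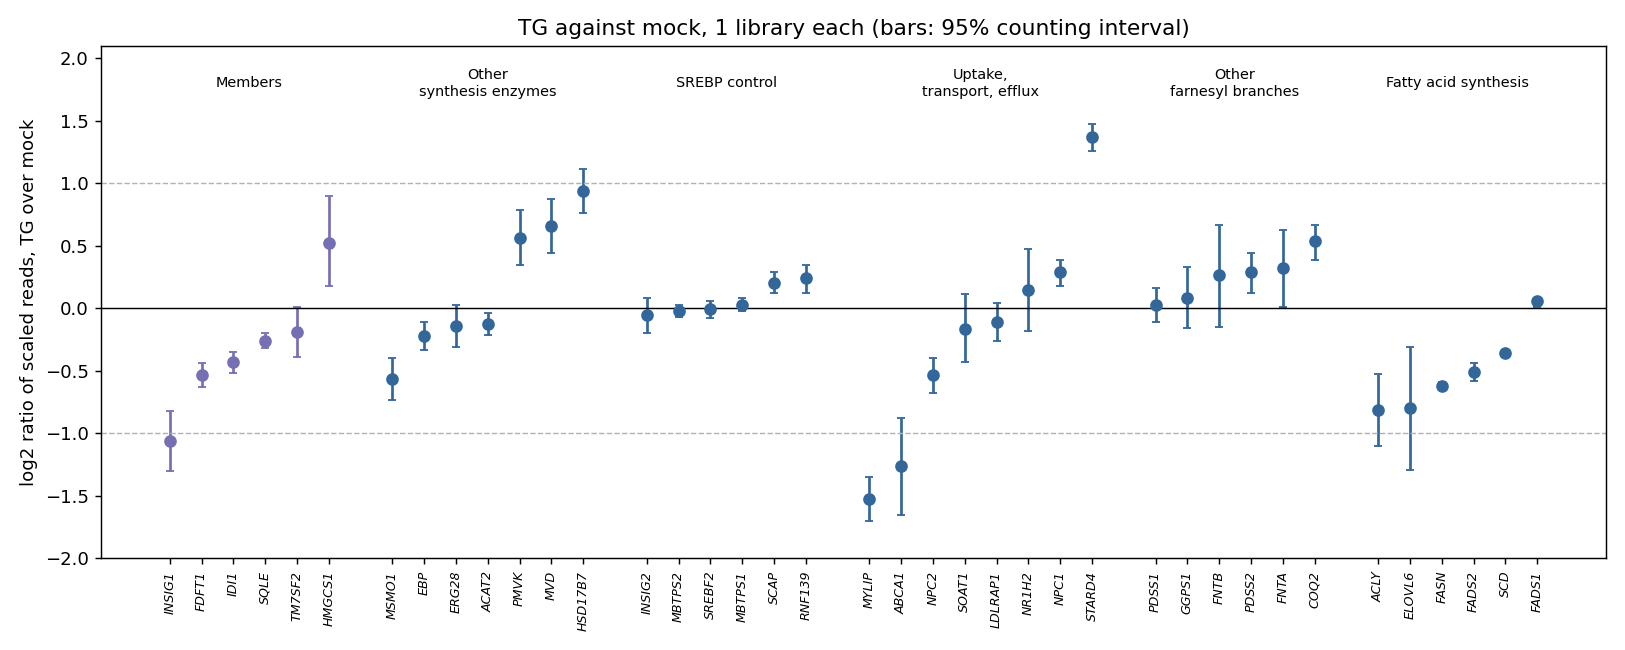
Log2 of the ratio of scaled reads in TG over mock, 1 library each, for genes with at least 50 reads in the higher library; error bars are exact 95% intervals (counting error only) and dashed lines mark 2-fold. INSIG1 (ratio 0.48), MYLIP, ABCA1 and STARD4 are the points beyond the dashed lines.

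The genotype comparison set the UFD1s-deficient line against WT cells. Loss of UFD1s and any other difference between the lines cannot be told apart here. In the edgeR fit 0 of 6 members were called, where the test called 0.328% of transcripts higher and 0.781% lower in deficient cells. HMGCS1 was farthest from 0 in the fit on all 6 libraries, with a log2 difference of 0.71 (SE 0.429, edgeR adjusted p = 0.527). This value was 0.10 without the genotype-set WT mock library, where TM7SF2 was farther at 0.73, and 1.37 without the genotype-set WT GD library. It stood at 4.47 CPM in deficient GD against 3.68 CPM in WT GD, a ratio of 1.21 (95% interval 0.79 to 1.87), and at 7.16 CPM in deficient mock against 3.13 CPM in WT mock, a ratio of 2.29 (1.57 to 3.39). The mock ratio was the single one of 7 past 2-fold, where 1.48% of 10121 transcripts were 2-fold higher. The authors' deposited table gives HMGCS1 a log2 ratio of 0.28 with p = 0.625 for GD, and 1.18 with p = 0.0187 for mock. Each of these deposited values compares single libraries, so the p-values rest on no replicate. The stress-set WT mock library had HMGCS1 at 6.09 CPM, near the deficient mock library. The log2 differences of the other 5 lay between −0.04 for SQLE (SE 0.115) and 0.14 for IDI1 (SE 0.125). For DHCR7 the fit on the whole genotype table gave −0.24 (SE 0.19, edgeR adjusted p = 0.4817).

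By log2 ratio of deficient to WT, 5 of the 7 members were below 0 in mock and 1 of the 7 in GD. The member medians were −0.09 in mock and 0.25 in GD, against 0.01 and −0.001 over all transcripts. TM7SF2 and INSIG1 changed sides with intervals that excluded 1 in both treatments. TM7SF2 had a ratio of deficient to WT of 1.45 (1.18 to 1.79) in GD and 0.788 (0.701 to 0.885) in mock. INSIG1 had one of 1.33 (1.07 to 1.66) in GD and 0.778 (0.657 to 0.921) in mock. IDI1 stayed nearer to WT, with a ratio of 1.23 (1.09 to 1.4) in GD and 0.995 (0.92 to 1.08) in mock. In the authors' deposited table, which compares single libraries without replicates, none of these 3 had a p under 0.05 in either treatment. The fitted difference of the GD response, deficient minus WT over both sets, was 0.08 for TM7SF2 (SE 0.562), 0.39 for INSIG1 (SE 0.422) and 0.23 for IDI1 (SE 0.26). It was 0.25 for FDFT1 (SE 0.264), −0.07 for SQLE (SE 0.258) and −0.07 for HMGCS1 (SE 0.796). All 6 had an edgeR adjusted p of 1, as this test on 1 residual degree of freedom called 0% of the 10368 transcripts higher and 0% lower. It called 0 transcripts by edgeR with 123 at an unadjusted p under 0.05, 0 by DESeq2 with 22, and 0 by limma voom with 121.

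**Figure D5:**
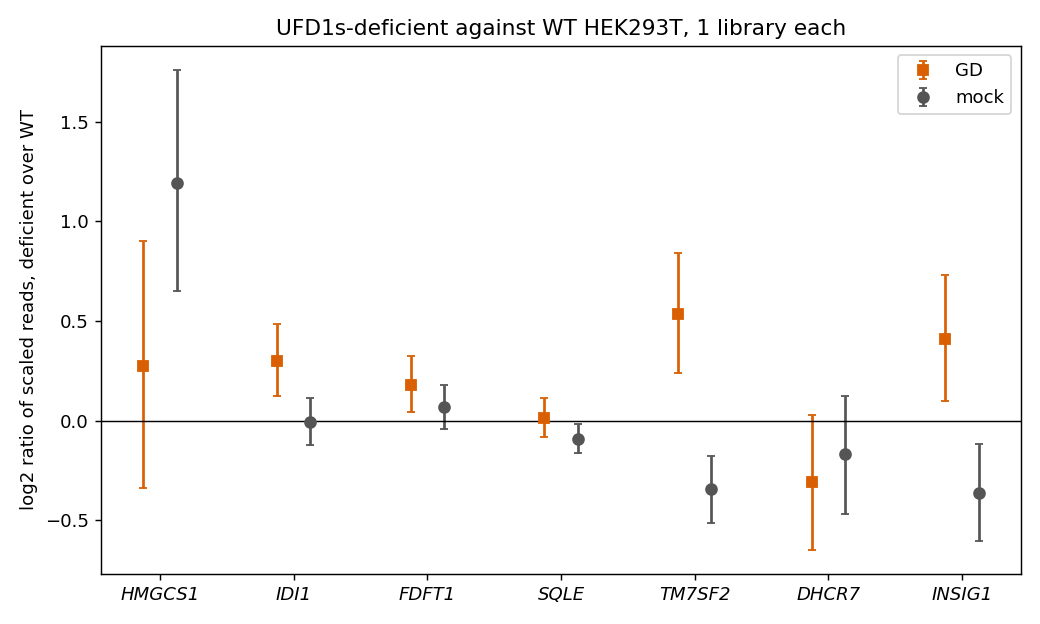
Log2 of the ratio of scaled reads, UFD1s-deficient over WT, in GD (orange squares) and mock (grey circles), 1 library each; error bars are exact 95% intervals (counting error only). TM7SF2 and INSIG1 lie above 0 in GD and below 0 in mock, and HMGCS1 has the highest mock ratio, 2.29.

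Genes most like the members were sought over the 4 treated-to-mock pairs (GD in deficient, genotype-set WT and stress-set cells, and TG), by distance of their log2 ratios from the members' medians. Of 8631 transcripts with a mean of at least 50 reads, those nearest included PNRC1, EFNB1, CNTNAP2, NAA40, ABCA7, IL17RA and TUBB2A, at distances of 0.0945 to 0.161. The members themselves were spread widely around their own medians, from SQLE at rank 124 and FDFT1 at rank 186 to TM7SF2 at rank 3463 and HMGCS1 at rank 5363. The 2 stress-set ratios share a mock library, and the distance is a description with no test.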

How the data were processed

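RNA was measured in 7 HEK293T libraries, per the labels. The authors deposited raw read counts per RefSeq transcript, not normalized. For the genotype set they also deposited log2 ratios and p-values, deficient over WT. Tools in the submitters' processing notes are Bowtie2, bedtools, cutadapt and FastQC, with build hg19 and no versions; the sources used here do not give the counting rule or strand. Counts were tested with edgeR 4.0.16 (R 4.3.3, TMM, default filter, which removed none of 10368 shared transcripts) with set, genotype and treatment as terms, 2 residual degrees of freedom. Neither set repeats a condition. The spread behind each p-value comes from the disagreement of the 3 pairs, and it may be technical. In edgeR each transcript's spread is drawn toward that of all transcripts, so a p-value does not measure that gene's own pairs alone. Ratios of 2 libraries as given here, and their exact conditional 95% intervals, are of scaled reads with no prior count. A prior count of 5 was used for the 2-fold rule and the median log2 ratios. It was also used for the log2 differences between sets and the likeness distances. DESeq2 1.42.0 and limma 3.58.1 (voom) were alternatives. The members and lists were chosen with earlier results of these data known. From each list the text names up to 6 genes called in GD with the largest changes and the 3 largest ratios in TG. Other genes (PMVK and SREBF2, and MVD and SCAP in GD) were named after their values were seen. Some genes of the lists are not reported here. Analysis steps were tested on simulated data.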

Additional observations from a re-analysis of the deposited data

How the results depend on the processing

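The 4 members called lower in GD stayed called with RLE size factors, library totals, a filter at 50 reads, DESeq2 and limma voom. Omitting the default filter gave the main fit again, since that filter removed no transcript. IDI1 and FDFT1 were called in every setting but the fit without a block. With the set and genotype terms dropped (no replicate block, as the labels give no replicate numbers) 0 members and 23 transcripts were called, against 4 and 2164. WT libraries alone called 2 members and 490 transcripts, and the genotype set alone 4040 transcripts. Leaving out 1 library at a time gave 2 to 5 members and 494 to 4039 transcripts. For GD, a library left without its partner adds next to nothing to the change, so each such fit rests on the other pairs. The fits on WT libraries alone and on the genotype set alone therefore use the same pairs as some of these. The 2 members, IDI1 and FDFT1, came without the genotype-set WT GD or WT mock library or either deficient library, and INSIG1 was added without either stress-set library. Of GD calls 46.7% were higher, 30.9% with library totals. Between genotypes 115 transcripts were called, 222 by DESeq2, 1942 in the genotype set alone and 5 to 1938 with a library left out, with 0 members called in each. Uncalled differences that changed sign were, for deficient minus WT, INSIG1 (0.00022 with RLE, 0.00461 by DESeq2, −0.353 to 0.402 with a library left out), TM7SF2 (−0.0274 by voom, −0.505 to 0.732 with a library left out), SQLE (−0.148 to 0.0713 with a library left out) and FDFT1 (−9.84e-05 to 0.253 likewise), and for the response by genotype HMGCS1 (0.014 by voom). The causes were not tested. In TG 733 transcripts were 2-fold apart, and 1491 with a minimum of 10 reads; INSIG1 was the 1 member past 2-fold in each setting. The response by genotype could not be fitted with a library left out. Intervals cover counting error only, and HMGCS1, with 28 to 164 reads, had the fewest of the 6 tested members.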
